A study of Mus musculus with 23 samples.

Results

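A set of 38 genes of blood clotting and complement proteins that hepatocytes make and secrete was examined in the liver, and 35 of the 38 were measured. Each gene was matched by the symbol in the array's annotation and represented by 1 probe set, a group of short probes against 1 transcript: the one assigned to that gene alone with the highest mean over all samples. All 35 passed the filter on dim genes, among 13826 genes tested of 18193 with a probe set of their own. C3 and Cpb2 were not analysed here, and C4b shares its probe set with C4a, so that the signal of those copies could not be told apart.

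RNA of 23 livers of male C3H mice was measured with Affymetrix arrays that read transcripts from the 3′ end, 1 array per liver sample. The groups were Ctnnb1 knockout with phenobarbital (7 arrays), Ctnnb1 knockout control (7 arrays), wild type with phenobarbital (4 arrays) and wild-type control (5 arrays). Treated mice of both genotypes ate 0.05% phenobarbital for 12 weeks, and controls of both genotypes ate a diet without it, although the sample labels name water as the vehicle and a dose of 0. Ctnnb1 encodes beta-catenin, and the knockout joined Alb-Cre, a Cre recombinase driven by the albumin promoter of hepatocytes, with a Ctnnb1 allele whose loxP sites lie around exons 3 and 6. Both alleles had been backcrossed into the C3H/N strain, and the liver samples also hold the cells in which the albumin promoter is not active. The labels do not say which of these alleles the wild-type mice carried. They do not give ages, nor say that the arrays of a group came from separate animals, so the p-values rest on the variation among samples that may be technical.

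Hepatocytes release most of the proteins of plasma. In the clotting cascade, proteases that need vitamin K, the contact system and their cofactors lead to thrombin, which turns fibrinogen into fibrin; serpins and the protein C system hold the cascade back, and plasmin dissolves the clot. In complement, mannose-binding lectins and their proteases, or the classical and alternative routes, build convertases that end in the membrane attack complex of C6, C8 and C9. Beta-catenin sets the perivenous gene programme of hepatocytes, and phenobarbital, through the receptor CAR (Nr1i3), induces drug-metabolising enzymes such as Cyp2b10.

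Signals are log2 values, so that a difference of 1 is a doubling. Genes with a p under 0.05 in limma's moderated test, after Benjamini-Hochberg adjustment over the 13826 tested genes, are referred to as called. The effects on these proteins were small: the largest was 0.58 on the log2 scale, for Mbl2, and no called change passed 1.5-fold. Without phenobarbital, the knockout raised 7 and lowered 6 of the 35 genes (20% and 17.1%, against 14.8% and 10.1% of all tested genes). With 3 knockout control arrays left out, described below, 8 were higher and 1 lower (against 7.10% and 4.05%). With phenobarbital, the knockout raised 11 and lowered 2 (31.4% and 5.71%, against 11.9% and 8.12%). In wild type, phenobarbital raised 1 gene and lowered 4 (2.86% and 11.4%, against 1.95% and 1.9%). In the knockout it changed none past the threshold, against 2.05% of all tested genes.

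The arrays had medians between 5.09 and 5.14 and their highest values between 14.79 and 14.92. Hepatocyte markers were bright in every group. Alb, the gene of albumin, was at 14.77 in knockout phenobarbital livers, 14.80 in knockout control livers, 14.68 in wild-type phenobarbital livers and 14.74 in wild-type control livers. None of the 6 tested was called between genotypes in either diet. With phenobarbital the arrays of the genotypes did not overlap for 3 of the 6, against 18.6% of all tested genes. Those of Alb overlapped in neither diet, with the knockout higher by 0.09 with phenobarbital and 0.06 without it. Alb lay close to the arrays' highest values, where a change may be compressed. Phenobarbital lowered 1 of the 6 in wild type, where 1.9% of all genes were lower. Perivenous genes fell in the knockout, 10 of 10 in both diets, with Glul, the glutamine synthetase, at 8.56 ± 0.57 in knockout phenobarbital livers and 8.81 ± 0.65 in knockout control livers (SD, n = 7 each), against 11.66 ± 0.10 in wild-type phenobarbital livers (n = 4) and 12.32 ± 0.13 in wild-type control livers (n = 5). The Ctnnb1 probe set did not differ between knockout and wild-type control livers (log2 change 0.05, limma adjusted p = 0.538), and the position of its probes relative to the deleted exons is not known here, so it does not check the labels. Cyp2b10 rose with phenobarbital in both genotypes, by 3.01 in the knockout and 6.96 in wild type. The 2 changes started from unlike levels, 9.75 ± 0.98 in knockout control livers and 5.68 ± 0.39 in wild-type control livers. Knockout phenobarbital livers reached 12.76 ± 0.17. The smaller change in the knockout thus began at a higher control level. Macrophage markers rose in the knockout, 12 of 14 in both diets, as did 8 of 10 endothelial markers. Of stellate cell and fibroblast markers, 6 of 8 rose without phenobarbital and 4 of 8 with it. Knockout control replicates 2, 6 and 7 had the group's highest summed macrophage marker signals, 14.21, 14.48 and 14.28. Replicate 1, at 13.64, lay closer to them than to replicates 3 to 5, at 12.08 to 12.20. The mean correlation of replicate 2 with its own group was 0.989, above the group's median of 0.987. By array weight replicates 2, 6 and 7 stood apart, at 0.54, 0.32 and 0.21 against 1.02 to 1.65 in the other knockout control arrays. Results that rest on knockout control arrays are therefore also given without those 3. Without the 3 arrays, 1 of 14 macrophage, 7 of 9 endothelial and 4 of 8 stellate cell and fibroblast markers were higher without phenobarbital, and 10 of 10 perivenous genes were lower. As the arrays left out held the highest macrophage signals of their group, the drop in macrophage calls follows in part from that choice. The group was also smaller, and over all tested genes the calls went from 3453 to 1532. In whole liver, fewer cells of a type and less RNA per cell cannot be told apart.

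**Figure D1:**
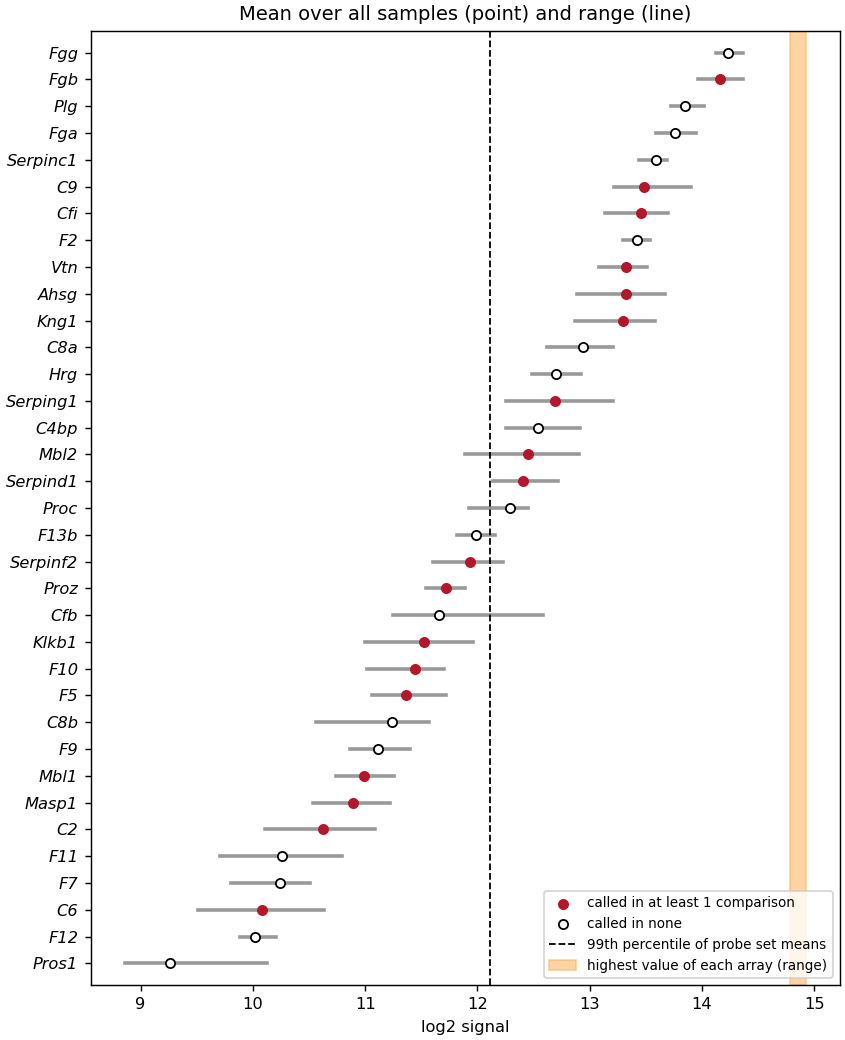
Mean log2 signal over 23 arrays (points) and the range over arrays (grey lines) for the 35 genes, with the 99th percentile of all probe set means (dashed line, 12.11) and the range of the arrays' highest values (orange band, 14.79 to 14.92). There are 18 genes right of the dashed line, with Fgg at 14.24 and Fgb at 14.16 closest to the band; filled points are genes called in at least 1 comparison.

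Many of these transcripts were among the brightest on the array. The mean of 18 of the 35 genes was at or above 12.11, the 99th percentile of all probe set means, where a signal may be compressed. The fibrinogen chain genes Fgg, Fgb and Fga averaged 14.24, 14.16 and 13.76 over all arrays, and Plg, which encodes plasminogen, averaged 13.85. On 1 array Fgb came within 0.46 of the highest value. At the other end were F12 at 10.02 and Pros1 at 9.26. These are signals of different probe sets, so they rank brightness on the array and not the amount of transcript. Of the 18 bright genes, 8 were called between genotypes with phenobarbital and 6 without it, and of the 17 dimmer genes 5 and 7 were called. Of 285 tested genes this bright, 24.2% were called with phenobarbital and 28.4% without it. Without phenobarbital the median size of the genotype difference was 0.12 for the bright genes and 0.30 for the dimmer ones, with median standard errors of 0.051 and 0.082. With phenobarbital the medians were 0.15 for the bright genes and 0.14 for the dimmer ones. Whether brightness limited a measured change was not tested.

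RefSeq promoter windows, taken to run from 250 bases before to 50 after a start (build GRCm38.p6), were held for 27 of the 35 measured genes. For some genes, Proz, F13b, C6, F9 and Mbl2 among them, that start lies inside the gene as listed. Windows of 5 genes are shown, for the genes whose changes are described at length below. Mbl2 (chr19:30232678-30232977, plus strand) had the largest genotype difference. Ahsg (chr16:22891765-22892064, plus strand) had the largest phenobarbital effect among the called genes. Serpind1 (chr16:17331121-17331420, plus strand) was higher in the knockout in both diets. F10 (chr8:13037058-13037357, plus strand) was the gene whose phenobarbital effect was called as different between genotypes on all arrays, a call that single arrays could end. Fgb (chr3:83049814-83050113, minus strand) was the fibrinogen gene that was called. Capitals mark matches on either strand to the searched motifs. These were GTTAAT, part of an HNF1 site, CAAAGTC, part of an HNF4 site, TTGCNNAA for C/EBP, TTCNNNGAA for STAT factors, and CTTTGAT and CTTTGTT for TCF/LEF, the partners of beta-catenin. No matches overlapped in the printed windows.
Mbl2: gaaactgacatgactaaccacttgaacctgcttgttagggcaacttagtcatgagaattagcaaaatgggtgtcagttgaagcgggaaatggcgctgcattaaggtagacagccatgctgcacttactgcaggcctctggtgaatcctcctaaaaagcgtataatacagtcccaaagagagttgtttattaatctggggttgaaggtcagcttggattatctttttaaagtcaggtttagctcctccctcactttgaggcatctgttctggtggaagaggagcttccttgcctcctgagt
Ahsg: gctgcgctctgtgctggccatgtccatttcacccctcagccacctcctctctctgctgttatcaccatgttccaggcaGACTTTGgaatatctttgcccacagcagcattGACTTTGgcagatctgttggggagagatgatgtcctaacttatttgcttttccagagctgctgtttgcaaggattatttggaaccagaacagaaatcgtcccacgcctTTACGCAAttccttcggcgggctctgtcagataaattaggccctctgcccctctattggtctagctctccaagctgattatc
Serpind1: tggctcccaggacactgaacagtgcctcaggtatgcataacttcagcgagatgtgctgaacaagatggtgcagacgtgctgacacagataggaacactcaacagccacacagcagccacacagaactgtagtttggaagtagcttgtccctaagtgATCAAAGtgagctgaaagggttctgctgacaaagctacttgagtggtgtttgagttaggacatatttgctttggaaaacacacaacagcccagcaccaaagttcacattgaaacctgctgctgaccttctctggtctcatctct
F10: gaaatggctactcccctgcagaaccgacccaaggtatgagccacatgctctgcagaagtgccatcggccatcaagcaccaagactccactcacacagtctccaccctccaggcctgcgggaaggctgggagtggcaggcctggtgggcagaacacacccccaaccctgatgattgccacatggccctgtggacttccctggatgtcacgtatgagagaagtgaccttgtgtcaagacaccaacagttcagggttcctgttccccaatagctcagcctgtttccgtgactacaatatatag
Fgb: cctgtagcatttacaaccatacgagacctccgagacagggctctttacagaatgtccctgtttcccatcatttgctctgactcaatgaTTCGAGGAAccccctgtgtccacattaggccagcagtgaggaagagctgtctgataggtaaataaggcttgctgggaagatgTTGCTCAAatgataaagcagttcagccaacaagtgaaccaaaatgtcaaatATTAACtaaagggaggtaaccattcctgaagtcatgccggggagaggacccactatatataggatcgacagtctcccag

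GTTAAT was in 9 of 27 windows (33.3%), those of C4bp, C8a, C8b, F13b, F2, Fga, Fgb, Proz and Vtn, against 7.10% of all 32851 windows of the table. TTGCNNAA was in 9 windows (33.3% against 10.8%) and TTCNNNGAA in 6 (22.2% against 8.30%). CTTTGAT was in the Serpind1 window alone (3.70% against 3.73%), CTTTGTT in that of F9 (3.70% against 5.85%), and CAAAGTC in those of Ahsg and Vtn (7.41% against 4.44%). A match is a stretch of letters and not a shown binding site.

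The vitamin K-dependent clotting proteases were F2 (prothrombin), F7, F9 and F10. F10, the factor X that as an active protease makes thrombin, was the only one called. Its lowest, median and highest signals were 11.46, 11.49 and 11.70 in knockout phenobarbital livers and 11.50, 11.60 and 11.63 in knockout control livers. In wild-type phenobarbital livers it had 11.44, 11.33, 11.39 and 11.46, and in wild-type control livers 11.25, 11.02, 11.19, 11.22 and 11.12. Every knockout array and every wild-type phenobarbital array thus lay above every wild-type control array. Without phenobarbital F10 was 0.43 higher in the knockout (SE 0.049, limma adjusted p = 1.94e-06), 1.35-fold, and with phenobarbital the difference was 0.12 (adjusted p = 0.102). The other 2 probe sets of F10 rose as well in the knockout without phenobarbital, by 0.49 and 0.31. F2 differed by -0.01 between genotypes without phenobarbital, with a 95% confidence interval of -0.10 to 0.07, and by -0.01 with it. For F7 and F9 the genotype differences lay between -0.07 and 0.13. F7, F10 and Proz stand side by side on chromosome 8, with 1498 bases between F7 and F10 and 3907 between F10 and Proz.

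**Figure D2:**
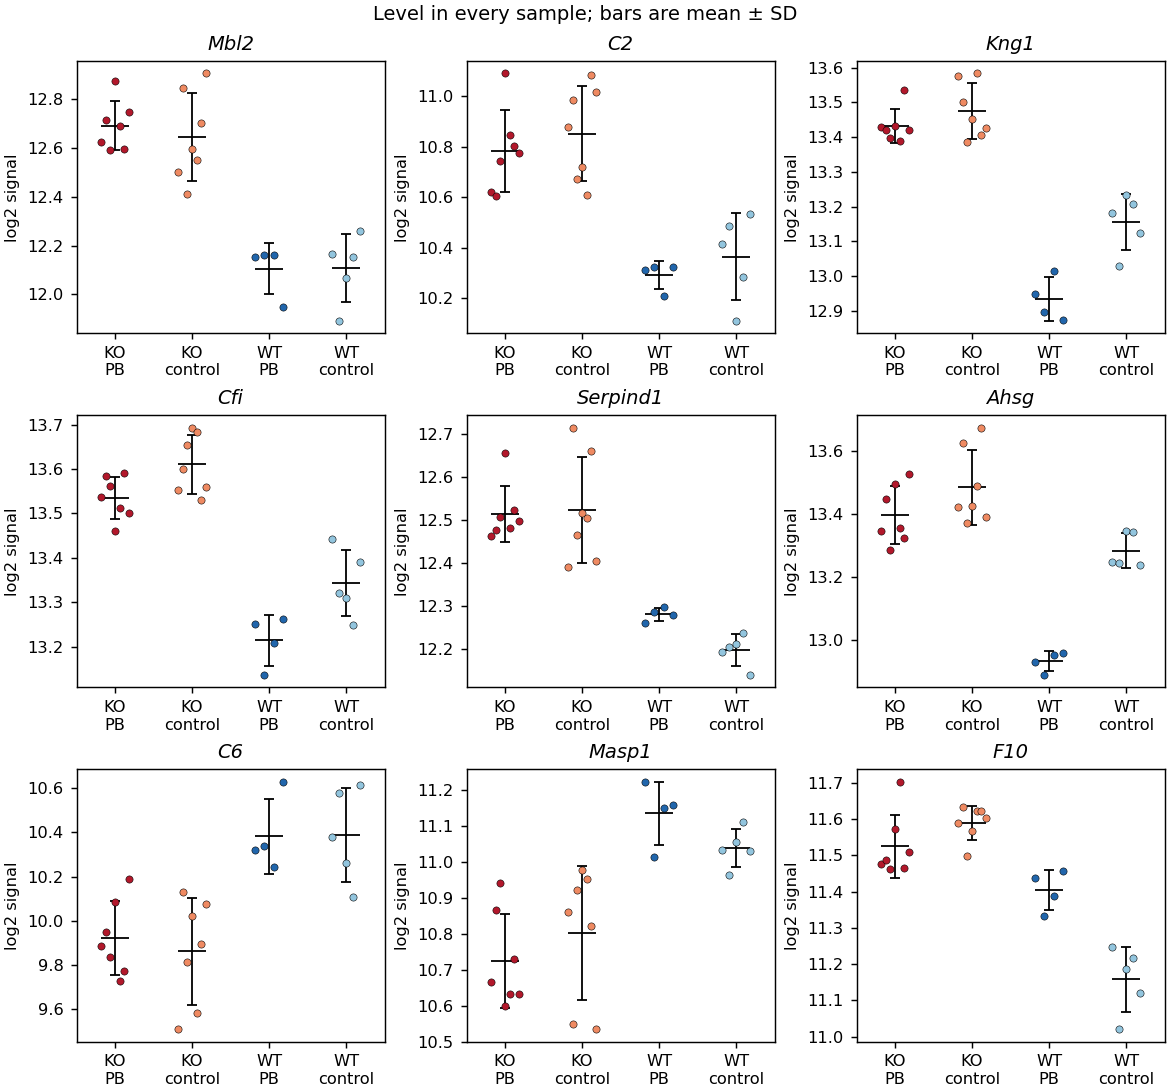
Log2 signal of the brightest probe set of 9 genes on every array (points) with the group mean and SD (bars). The groups are knockout phenobarbital, knockout control, wild-type phenobarbital and wild-type control livers. Mbl2, C2, Kng1, Cfi, Serpind1 and Ahsg are higher on all knockout arrays than on the wild-type arrays of the same diet, and F10 is lowest in wild-type control livers, at 11.16 ± 0.09.

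Across the whole list, 13 of 35 genes (37.1%) were called between knockout and wild type without phenobarbital, where 25% of all tested genes were called. Higher calls made up 7 genes (20% of the list against 14.8% of all genes) and lower calls 6 (17.1% against 10.1%). In 7 genes the 2 groups of arrays did not overlap, where 10.6% of all genes had no overlap. The median change of the list was 0.04, that of all genes -0.00. With phenobarbital, 13 genes (37.1%) were called, where 20% of all genes were called; 11 were higher (31.4% against 11.9%) and 2 lower (5.71% against 8.12%). The arrays did not overlap for 14 genes, or 40% of the list, against 18.6% of all genes. The median of the list was then 0.12, that of all genes 0.00. The knockout was higher in both diets for 6 genes, Ahsg, C2, Cfi, Mbl2, Serpind1 and, by its brighter probe set alone, Kng1. It was lower in both for 2, C6 and, by its brightest probe set alone, Masp1. Without the 3 knockout control arrays that stood apart, 9 of the 35 genes (25.7%) were called without phenobarbital, 8 higher and 1 lower (22.9% and 2.86%), where 11.1% of 13741 tested genes were called, 7.10% higher and 4.05% lower. The higher genes were F10 (0.41, limma adjusted p = 7.68e-05), Mbl2 (0.41), C2 (0.36, adjusted p = 0.0171), Kng1 (0.34, adjusted p = 0.000287), Cfi (0.30, adjusted p = 0.000397), Serpind1 (0.27, adjusted p = 0.000458), Serpinf2 (0.24, adjusted p = 0.0363) and Vtn (0.14, adjusted p = 0.0365). The lower gene was C6 (-0.66, adjusted p = 0.00135), and the calls of Ahsg, C9, F5, Klkb1, Masp1 and Mbl1 were lost.

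**Figure D3:**
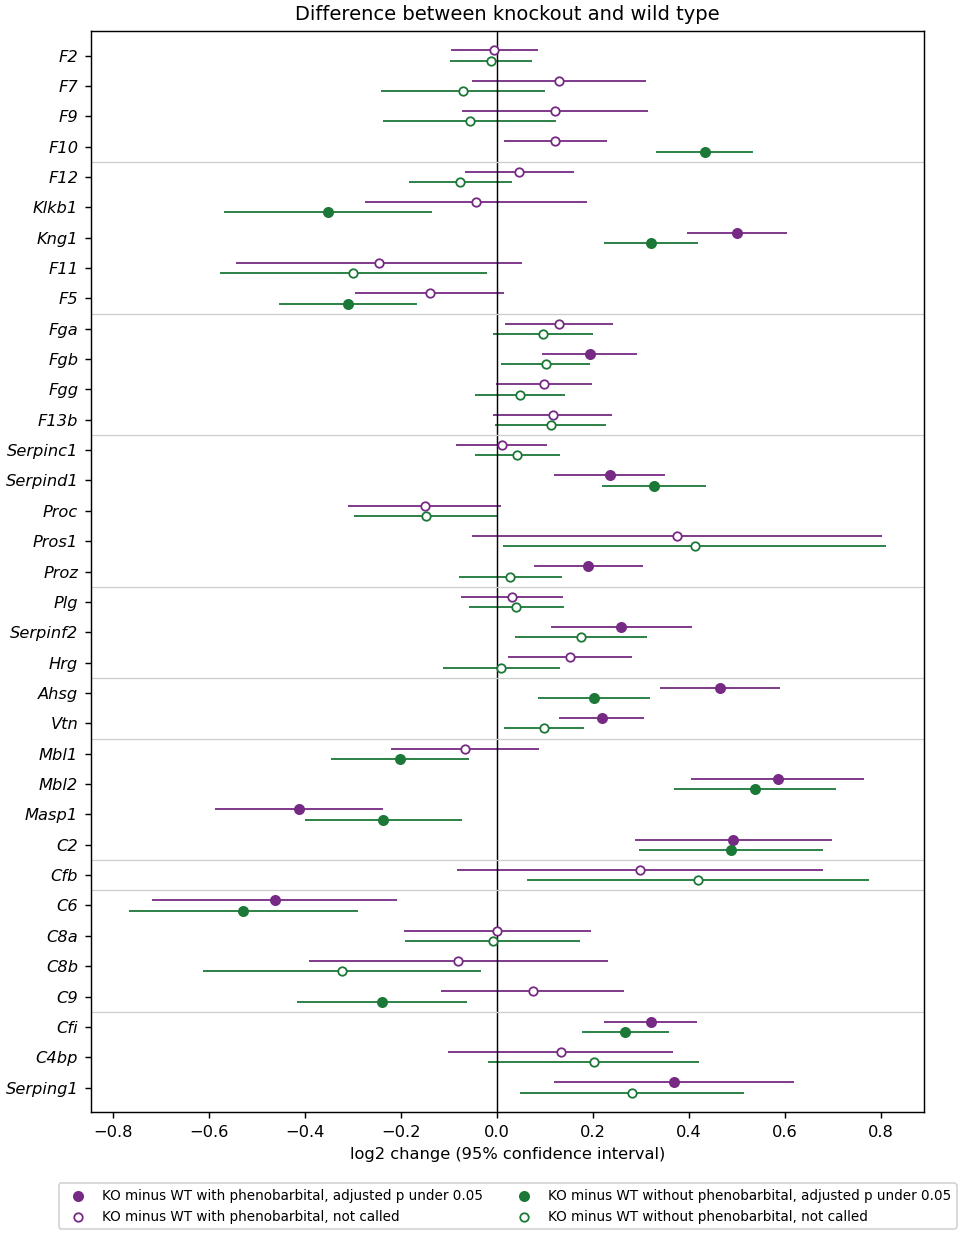
Log2 change between knockout and wild-type livers (point) with its 95% confidence interval (line) for the 35 genes in order of their roles, with phenobarbital (purple) and without it (green); filled points passed an adjusted p of 0.05. With phenobarbital 11 filled points lie right of 0 and 2 left of it, without phenobarbital 7 right and 6 left.

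In the contact system, Kng1 was higher in the knockout in both diets by the brighter of its probe sets, and Klkb1 was lower without phenobarbital on all arrays but not without the 3 that stood apart. Kng1 encodes kininogen, the source of bradykinin, and Klkb1 plasma prekallikrein, the protease that releases it. Kng1 had a lowest, median and highest signal of 13.39, 13.42 and 13.54 in knockout phenobarbital livers and of 13.39, 13.45 and 13.58 in knockout control livers. It had 12.95, 12.90, 13.01 and 12.87 in wild-type phenobarbital livers and 13.18, 13.03, 13.23, 13.21 and 13.12 in wild-type control livers. No knockout array overlapped with a wild-type one, and all wild-type phenobarbital arrays were below the wild-type control arrays. The knockout was higher by 0.50 with phenobarbital (SE 0.050, limma adjusted p = 3.29e-07) and by 0.32 without it (SE 0.047, adjusted p = 5.76e-05). The second Kng1 probe set, at a mean of 12.56, differed by -0.00 with phenobarbital and 0.01 without it.

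Klkb1 averaged 11.40 ± 0.16 in knockout phenobarbital livers, 11.48 ± 0.26 in knockout control livers (SD, n = 7 each), 11.44 ± 0.08 in wild-type phenobarbital livers (n = 4) and 11.84 ± 0.12 in wild-type control livers (n = 5). It fell by 0.35 in the knockout without phenobarbital (SE 0.10, limma adjusted p = 0.0176), with overlapping arrays. With phenobarbital the difference was -0.04. F5, the factor V that serves factor X as a cofactor, averaged 11.21 ± 0.09 in knockout phenobarbital livers, 11.33 ± 0.18 in knockout control livers, 11.35 ± 0.02 in wild-type phenobarbital livers and 11.64 ± 0.06 in wild-type control livers. F5 fell by 0.31 in the knockout without phenobarbital (adjusted p = 0.0031), and its second probe set fell in both diets, by 0.27 with phenobarbital and 0.25 without it. Without the 3 arrays, the calls of Klkb1 (-0.25, adjusted p = 0.101) and F5 (-0.20, adjusted p = 0.0596) were lost. F11 and F12, the factors XI and XII, were not called, with F11 at -0.25 with phenobarbital and -0.30 without it. F11 and Klkb1 are neighbours on chromosome 8, 4632 bases apart.

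Of the genes of fibrinogen and its crosslinking, 1 of 4 was called between genotypes, with phenobarbital, where 20% of all tested genes were called. Fgb, the fibrinogen beta chain, had a lowest, median and highest signal of 14.08, 14.20 and 14.29 in knockout phenobarbital livers and of 14.16, 14.25 and 14.36 in knockout control livers. It had 13.98, 13.96, 14.00 and 14.00 in wild-type phenobarbital livers and 14.24, 14.12, 14.14, 14.10 and 14.14 in wild-type control livers. All wild-type phenobarbital arrays were below all other arrays. Fgb was 0.19 higher in the knockout with phenobarbital (SE 0.048, limma adjusted p = 0.00692), and 0.10 without it (adjusted p = 0.0977). The alpha and gamma chains differed less: Fga by 0.13 and 0.10 and Fgg by 0.10 and 0.05, with and without phenobarbital. F13b, the carrier subunit of factor XIII, which crosslinks fibrin, differed by 0.12 and 0.11. None of these 6 values passed the threshold. The 3 chain genes lie together on chromosome 3, with 11096 bases between Fgg and Fga and 8618 between Fga and Fgb.

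Among the anticoagulants, 2 of 5 were called between genotypes with phenobarbital and 1 without it, where 20% and 25% of all tested genes were called. Serpind1 encodes heparin cofactor II, a thrombin inhibitor. Its lowest, median and highest signals were 12.46, 12.50 and 12.66 in knockout phenobarbital livers and 12.39, 12.50 and 12.72 in knockout control livers. It had 12.26, 12.29, 12.30 and 12.28 in wild-type phenobarbital livers and 12.19, 12.20, 12.21, 12.24 and 12.14 in wild-type control livers. The genotypes did not overlap, and Serpind1 was higher in the knockout by 0.24 with phenobarbital (limma adjusted p = 0.00516) and 0.33 without it (adjusted p = 0.000132). Proz, the gene of protein Z, a cofactor that helps inhibit factor X, averaged 11.78 ± 0.08 in knockout phenobarbital livers and 11.59 ± 0.05 in wild-type phenobarbital livers. This 0.19 was called (adjusted p = 0.0183), but the call was lost without wild-type phenobarbital replicate 1 or 3 (adjusted p = 0.0658 at most), and its dimmer second probe set gave -0.19 (adjusted p = 0.134 over all probe sets). Antithrombin, from Serpinc1, differed by 0.01 with phenobarbital (95% confidence interval -0.09 to 0.11) and 0.04 without it (-0.05 to 0.13). Proc, the gene of protein C, differed by -0.15 in both diets and was not called.

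Pros1, the gene of protein S, a cofactor of protein C, had the largest SD of the list in both knockout groups. It averaged 9.35 ± 0.41 in knockout phenobarbital livers and 9.48 ± 0.45 in knockout control livers (SD, n = 7 each), against 8.97 ± 0.06 in wild-type phenobarbital livers (n = 4) and 9.07 ± 0.12 in wild-type control livers (n = 5). The differences of 0.37 with phenobarbital and 0.41 without it were not called (limma adjusted p = 0.204 and 0.12). Without the 3 knockout control arrays that stood apart, the second value was 0.09. Knockout control replicates 6, 2 and 7 held its 3 highest signals in their group, 10.12, 9.91 and 9.72, and these are the arrays with the highest summed macrophage markers. The part of macrophages in this spread was not tested.

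Of the fibrinolysis genes, Serpinf2, which encodes alpha-2-antiplasmin, the main plasmin inhibitor, averaged 11.98 ± 0.11 in knockout phenobarbital livers and 11.72 ± 0.08 in wild-type phenobarbital livers, a called rise of 0.26 (limma adjusted p = 0.0133). The call was lost without wild-type phenobarbital replicate 2 (adjusted p = 0.0548). Without phenobarbital it averaged 12.05 ± 0.11 in the knockout and 11.88 ± 0.12 in wild type, a difference of 0.18 (adjusted p = 0.0553). Plg differed by 0.03 with phenobarbital (95% confidence interval -0.07 to 0.14) and 0.04 without it (-0.06 to 0.14), and Hrg, the histidine-rich glycoprotein that binds plasminogen, by 0.15 and 0.01; neither was called. The Hrg probe set is of a kind that can also bind related transcripts.

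The other plasma glycoproteins were Ahsg and Vtn, and both were higher in the knockout with phenobarbital. Ahsg encodes fetuin-A, which keeps calcium phosphate in solution. Its lowest, median and highest signals were 13.29, 13.36 and 13.53 in knockout phenobarbital livers and 13.37, 13.43 and 13.67 in knockout control livers. It had 12.93, 12.89, 12.95 and 12.96 in wild-type phenobarbital livers and 13.25, 13.24, 13.35, 13.34 and 13.24 in wild-type control livers. The wild-type phenobarbital arrays were all below every other array. Ahsg was 0.46 higher in the knockout with phenobarbital (SE 0.060, limma adjusted p = 1.33e-05), and 0.20 higher without it (SE 0.056, adjusted p = 0.0129). Without the 3 arrays the second value was 0.14 and not called (adjusted p = 0.0938). Vtn encodes vitronectin, which binds integrins and blocks the membrane attack complex. It averaged 13.36 ± 0.05 in knockout phenobarbital livers and 13.14 ± 0.04 in wild-type phenobarbital livers, a rise of 0.22 (adjusted p = 0.00123), with no overlap. Its second probe set gave 0.19 and was not called (adjusted p = 0.218 over all probe sets). Ahsg, Hrg and Kng1 lie in this order on chromosome 16, with 51620 and 96560 bases between neighbours.

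The genes that start the lectin and classical pathways held the largest genotype difference and moved in both directions. Mbl2, a mannose-binding lectin that recognises microbial sugars, had a lowest, median and highest signal of 12.59, 12.69 and 12.87 in knockout phenobarbital livers and of 12.41, 12.59 and 12.91 in knockout control livers. It had 12.15, 12.16, 12.16 and 11.95 in wild-type phenobarbital livers and 12.17, 11.89, 12.07, 12.16 and 12.26 in wild-type control livers. The genotypes did not overlap. Mbl2 rose by 0.58 with phenobarbital (SE 0.087, limma adjusted p = 6.41e-05) and by 0.54 without it (SE 0.081, adjusted p = 7.59e-05), and by 0.41 without phenobarbital when the 3 arrays were left out (adjusted p = 0.00107). Mbl1, the second mouse lectin of this kind, averaged 10.96 ± 0.15 in knockout control livers and 11.16 ± 0.08 in wild-type control livers. This fall by 0.20 (adjusted p = 0.0375) had overlapping arrays and was -0.12 without the 3 arrays (adjusted p = 0.298). It was lost without knockout control replicate 2 or 7 or wild-type control replicate 1, 2, 4 or 5 (adjusted p up to 0.0896).

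C2, whose product is the protease subunit of the classical and lectin convertase, had a lowest, median and highest signal of 10.61, 10.77 and 11.09 in knockout phenobarbital livers and of 10.61, 10.88 and 11.08 in knockout control livers. It had 10.31, 10.32, 10.21 and 10.32 in wild-type phenobarbital livers and 10.41, 10.48, 10.11, 10.28 and 10.53 in wild-type control livers. The genotypes did not overlap, and C2 rose by 0.49 with phenobarbital (limma adjusted p = 0.00143) and by 0.49 without it (adjusted p = 0.000737). Its 3 probe sets rose by 0.47 to 0.55 in the 2 diets; the 2 brightest are of a kind that can bind related transcripts. Cfb, its counterpart in the alternative pathway, lies 87 bases from C2 on chromosome 17 and was not called. Cfb averaged 11.72 ± 0.29 in knockout phenobarbital livers and 11.88 ± 0.44 in knockout control livers, against 11.42 ± 0.07 in wild-type phenobarbital livers and 11.46 ± 0.18 in wild-type control livers. Its 3 highest knockout control signals, 12.58, 12.25 and 12.13, were those of replicates 6, 2 and 7. Without these 3 arrays the Cfb difference between genotypes without phenobarbital was 0.09, against 0.42 on all arrays. The probe set that C4a and C4b share gave a difference of -0.13 with phenobarbital and -0.47 without it (adjusted p = 0.11), neither called.

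Masp1, the gene of a lectin pathway protease, gave opposite results by probe set. The brightest probe set, with a mean of 10.89, had a lowest, median and highest signal of 10.60, 10.67 and 10.94 in knockout phenobarbital livers and of 10.53, 10.86 and 10.98 in knockout control livers. It had 11.22, 11.01, 11.15 and 11.16 in wild-type phenobarbital livers and 11.03, 10.96, 11.05, 11.11 and 11.03 in wild-type control livers. The groups did not overlap with phenobarbital and overlapped without it. This probe set fell by 0.41 in the knockout with phenobarbital (limma adjusted p = 0.00162) and by 0.24 without it (adjusted p = 0.0327), and without the 3 arrays the second value was -0.11 (adjusted p = 0.326). The second call was also lost without knockout control replicate 2 or 7 or wild-type control replicate 1, 3, 4 or 5 (adjusted p up to 0.0752). Another 3, dimmer probe sets with means of 8.85, 8.77 and 6.25, rose in the knockout without phenobarbital, by 0.71, 0.81 and 0.54. With phenobarbital they gave 0.49, 0.63 and 0.31, of which 0.63 passed the threshold over all 45037 probe sets. All 3 are of kinds that can bind related transcripts, and their knockout control SDs were 0.48, 0.47 and 0.39 (n = 7). They were not fitted without the 3 knockout control arrays. The fifth probe set, at 3.31, was not called in either diet. The Masp1 gene makes more than 1 protein by alternative splicing, and which transcripts each probe set reads is not given in the sources used here.

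**Figure D4:**
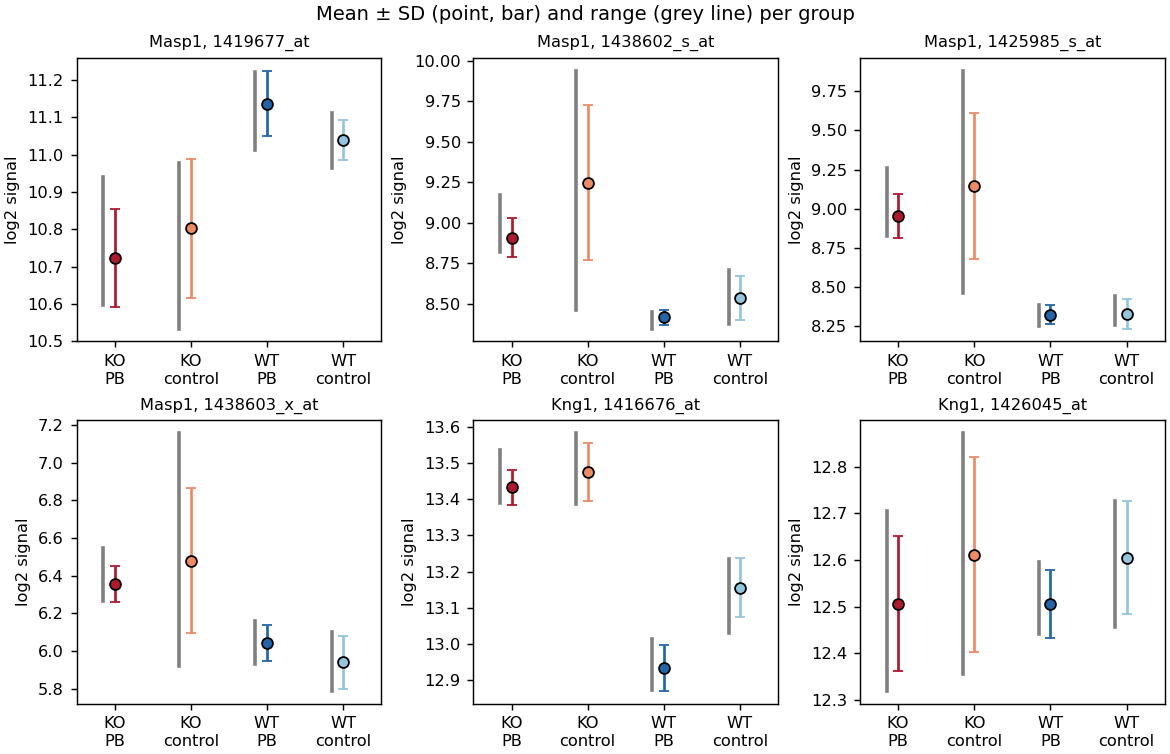
Mean and SD (point and bar) and range (grey line) of the log2 signal in the 4 groups for 4 probe sets of Masp1 and both of Kng1. The brightest Masp1 probe set is lower in the knockout (10.72 with phenobarbital and 10.80 without it, against 11.14 and 11.04 in wild type), and the other 3 have higher knockout means; the first Kng1 probe set is higher in the knockout and the second, at a mean of 12.56, is not.

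Terminal complement genes went the other way from the starting lectin Mbl2 where they were called. C6, which begins the assembly of the pore, had a lowest, median and highest signal of 9.73, 9.89 and 10.19 in knockout phenobarbital livers and of 9.51, 9.90 and 10.13 in knockout control livers. It had 10.32, 10.34, 10.24 and 10.63 in wild-type phenobarbital livers and 10.38, 10.58, 10.26, 10.11 and 10.62 in wild-type control livers. The groups did not overlap with phenobarbital, while without it 1 wild-type array lay in the knockout range. C6 fell by 0.46 with phenobarbital (SE 0.12, limma adjusted p = 0.0113) and by 0.53 without it (SE 0.11, adjusted p = 0.00245), or -0.66 without the 3 arrays. The first call was lost without wild-type phenobarbital replicate 4 (adjusted p = 0.0600). C9, which forms the wall of the pore, averaged 13.45 ± 0.14 in knockout control livers and 13.69 ± 0.17 in wild-type control livers; the fall by 0.24 (adjusted p = 0.0447) was lost on leaving out any 1 of 11 arrays (adjusted p up to 0.13) and gave -0.20 without the 3 arrays. The 11 were knockout phenobarbital replicate 1, knockout control replicates 1, 2, 5, 6 and 7, wild-type phenobarbital replicates 1 and 3, and wild-type control replicates 1, 2 and 5. The linked genes C8a and C8b, whose products join between these steps, were not called, with C8b at -0.08 with phenobarbital and -0.32 without it.

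Of the complement inhibitors, Cfi encodes factor I, the protease that cleaves C3b and C4b. Cfi had a lowest, median and highest signal of 13.46, 13.54 and 13.59 in knockout phenobarbital livers and of 13.53, 13.60 and 13.69 in knockout control livers. It had 13.25, 13.14, 13.21 and 13.26 in wild-type phenobarbital livers and 13.44, 13.32, 13.31, 13.25 and 13.39 in wild-type control livers. The groups did not overlap in either diet. Cfi rose by 0.32 with phenobarbital (limma adjusted p = 5.22e-05) and by 0.27 without it (adjusted p = 0.000169). Serping1, the gene of the C1 inhibitor, which also restrains the contact system, averaged 12.72 ± 0.23 in knockout phenobarbital livers and 12.35 ± 0.09 in wild-type phenobarbital livers. This rise of 0.37 (adjusted p = 0.0352) had overlapping arrays and was lost on leaving out any 1 of 7 arrays (adjusted p up to 0.0942), knockout phenobarbital replicates 3 to 5 and the 4 wild-type phenobarbital arrays. Its 3 highest knockout control signals, 13.20, 13.15 and 13.11, were on replicates 6, 7 and 2, as for Pros1 and Cfb. The Serping1 difference without phenobarbital was not called on all arrays (limma adjusted p = 0.0703), and it was 0.10 without these 3. C4bp, the C4b-binding protein, differed by 0.13 and 0.20 with and without phenobarbital and was not called.

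In wild-type livers, phenobarbital changed 5 of the 35 genes (14.3%), where 3.85% of all tested genes were called. One was higher, F10 (2.86% of the list against 1.95% of all genes), and 4 were lower, Ahsg, F5, Kng1 and Vtn (11.4% against 1.9%). For 12 genes, 34.3% of the list, the arrays did not overlap, against 11.6% of all genes. The median of the list was -0.10, that of all genes 0.01, and 30 of 35 values were below 0. Ahsg averaged 12.93 ± 0.03 in phenobarbital livers (SD, n = 4) and 13.28 ± 0.05 in control livers (n = 5), a fall by 0.35 (SE 0.064, limma adjusted p = 0.0021). F10 averaged 11.40 ± 0.06 in phenobarbital livers and 11.16 ± 0.09 in control livers, a rise of 0.25 (adjusted p = 0.0116). The other 2 probe sets of F10 gave 0.22 and 0.10 and were not called.

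The remaining 3 falls in wild type were closer to the threshold. F5 fell by 0.29, Kng1 by 0.22 and Vtn by 0.17 (limma adjusted p = 0.043, 0.0184 and 0.0342), to 11.35 ± 0.02, 12.93 ± 0.06 and 13.14 ± 0.04 in phenobarbital livers, against 11.64 ± 0.06, 13.16 ± 0.08 and 13.31 ± 0.05 in control livers. Leaving out 1 array ended the F5 call for 10 arrays (adjusted p up to 0.104): knockout phenobarbital replicates 1 and 4, all 4 wild-type phenobarbital arrays and wild-type control replicates 2 to 5. It ended the Vtn call for 8 arrays, all wild-type arrays but control replicate 4 (up to 0.136), and the Kng1 call for 3 (up to 0.0738): wild-type control replicate 3 and wild-type phenobarbital replicates 2 and 4. The second probe sets of Kng1, Vtn and F5 gave -0.10, -0.11 and -0.19 and were not called. That of F5 gave -0.21 in the knockout, a difference between the genotypes of -0.02. The knockout value was called in the fit with the second-brightest probe sets but not over all probe sets (limma adjusted p = 0.0658). Klkb1 and F11, with -0.39 each, Serping1, Mbl1, Fgb, Fga and Serpind1 also had no overlap between the diets, but none passed the threshold (Klkb1 adjusted p = 0.0708, Fgb 0.0895).

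**Figure D5:**
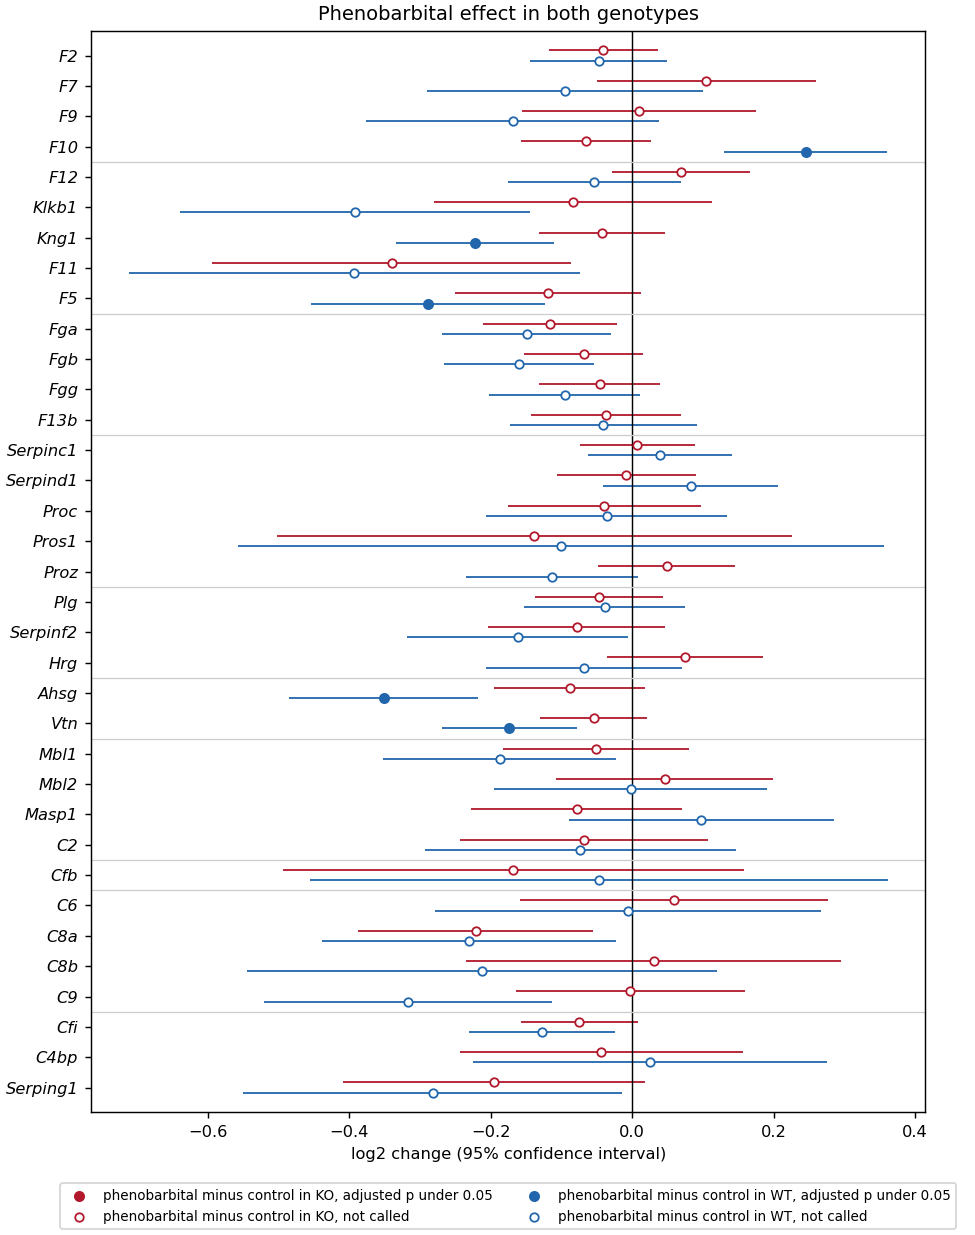
Log2 change between phenobarbital and control livers (point) with its 95% confidence interval (line) for the 35 genes, in the knockout and in wild type; filled points passed an adjusted p of 0.05. In wild type Ahsg, F5, Kng1 and Vtn lie left of 0 and F10 right of it as filled points, and the knockout has none.

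In knockout livers, limma called 0 of the 35 genes with phenobarbital, where 2.05% of all tested genes were called (1.17% higher and 0.882% lower), and 3 genes had an unadjusted p under 0.05. No gene had groups without overlap, against 0.976% of all genes. The changes ran from -0.34 for F11 to 0.11 for F7, and the list's median was -0.05, that of all genes 0.01. Without the 3 knockout control arrays, C8a (-0.34, adjusted p = 0.0193) and F5 (-0.22, adjusted p = 0.0438) were called. Knockout phenobarbital replicates 4, 5 and 7, with summed macrophage signals of 13.80, 13.94 and 13.83, stayed in this comparison. The 2 groups were thus not matched for that signal. The same holds for every other phenobarbital effect in the knockout given without the 3 arrays.

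The test of the difference between the 2 phenobarbital effects called 1 of the 35 genes, F10, where 0.875% of all genes were called and 0.521% had a negative difference, as F10 did. The F10 effect was -0.07 in the knockout (SE 0.044) and 0.25 in wild type (SE 0.056), a difference of -0.31 (SE 0.071, limma adjusted p = 0.034). It was lost on leaving out any 1 of 13 arrays (adjusted p up to 0.0933), which were knockout phenobarbital replicates 1, 2, 3, 6 and 7, knockout control replicates 2, 5 and 6, wild-type phenobarbital replicates 1, 3 and 4 and wild-type control replicates 2 and 5, and without the 3 knockout control arrays (adjusted p = 0.0647). Without those 3 arrays, Ahsg was called in its place, with a difference of 0.32 (adjusted p = 0.0264), against 0.26 on all arrays (adjusted p = 0.181). The effects on F5, Kng1, Vtn and, on all arrays, Ahsg were not shown to differ between the genotypes. Between the genotypes, 5 genes were called without phenobarbital alone (F10, Klkb1, C9, Mbl1 and, by its brighter probe set but not by the second, F5). Another 5 were called with phenobarbital alone (Fgb, Proz, Serpinf2, Serping1 and Vtn). Of these genes called in 1 diet, F10 alone passed the test of the difference between the diets.

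The spread between arrays was itself unequal. The median SD of the 35 genes was 0.0933 in knockout phenobarbital livers, 0.142 in knockout control livers, 0.0566 in wild-type phenobarbital livers and 0.0815 in wild-type control livers. Over all tested genes it was 0.136, 0.160, 0.0937 and 0.122. For 29 of 35 genes the SD was larger in knockout control livers than in wild-type control livers. In all, 17 genes were called in none of the 4 comparisons. Their products include prothrombin, antithrombin and plasminogen, whose 95% confidence intervals over the 4 comparisons lay between -0.15 (Plg with phenobarbital in wild type) and 0.14. The genes of these products are among the 18 bright ones, where a signal may be compressed. Changes of the 17 genes ran from -0.39, for F11 with phenobarbital in wild type, to 0.42, for Cfb between genotypes without phenobarbital. For phenobarbital in wild type, 95% confidence intervals of genes not called reached up to 0.46 to either side. A gene not called was thus not shown to be unchanged.

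Other clotting and fibrinolysis genes of a wider list, many of them made outside hepatocytes, included larger changes. Of 29 tested, 5 were higher and 2 lower in the knockout with phenobarbital, where 11.9% and 8.12% of all genes were. Without it 11 were higher and 3 lower, where 14.8% and 10.1% of all genes were. Without phenobarbital the largest called changes were Anxa2 (1.77), a cell surface receptor for plasminogen, Procr (1.30), the endothelial protein C receptor, Thbd (1.19), thrombomodulin, and Gas6 (0.93), a vitamin K-dependent ligand. With it the largest called changes were Thbd (0.79), F8 (0.76), Vwf (0.70) and Serpina10 (0.42), the protein Z-dependent inhibitor. Thbd, F8 and Vwf are themselves in the endothelial marker list, so the rise of that list is in part their own. Ggcx, the enzyme that adds the vitamin K-dependent carboxyl groups, fell by 0.35 with phenobarbital and 0.24 without it. Phenobarbital called none of the 29 in either genotype, with 3 at an unadjusted p under 0.05 in each. Without the 3 knockout control arrays, 8 of the 29 were higher and 1 lower between genotypes without phenobarbital, with Anxa2 at 1.07, Thbd at 0.95 and Gas6 at 0.76, while Procr (0.51, limma adjusted p = 0.235) and Ggcx (-0.14, adjusted p = 0.394) were no longer called. In the knockout, phenobarbital then lowered 1 of the 29, Apoh (-0.14, adjusted p = 0.0352), which encodes beta-2-glycoprotein I.

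Of 28 other complement genes, 12 were higher and none lower in the knockout with phenobarbital, where 11.9% and 8.12% of all genes were. Without it 12 were higher and 3 lower, where 14.8% and 10.1% of all genes were. With phenobarbital the largest called changes were C1qb (2.22), Itgb2 (2.11), C1qa (2.05) and Vsig4 (1.98). Without it the largest called changes were Itgb2 (2.42), C1qb (1.77), C1qa (1.59) and C1qc (1.58). Without the 3 knockout control arrays, 5 of the 28 were higher and 1 lower without phenobarbital, and the calls of Itgb2 (1.41, limma adjusted p = 0.0604), C1qb (1.02, adjusted p = 0.122), C1qa (1.001, adjusted p = 0.0688) and C1qc (0.88, adjusted p = 0.116) were lost. Those still called included the lectins Colec11 (1.32) and Colec10 (1.01). The C1q chains and the complement receptor Vsig4 are macrophage genes and are in that marker list, whose summed signal therefore includes them. It ran from 12.04 to 13.94 in knockout phenobarbital livers and 12.08 to 14.48 in knockout control livers, against 11.05 to 11.33 in wild-type phenobarbital livers and 11.12 to 12.03 in wild-type control livers. The 3 knockout control arrays left out above were those with the highest such sums in their group. Phenobarbital raised 1 of the 28 in each genotype, Crp, the C-reactive protein, by 0.37 in the knockout (0.43 without the 3 arrays) and 0.36 in wild type.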

How the data were processed

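RNA of 23 liver samples was hybridised to Affymetrix 3′ arrays, and the authors deposited log2 signals per probe set made with RMA in affy, per the submitters' processing notes; versions and settings are not given in the sources used here. Of 45037 probe sets, 34945 were assigned to 1 gene, 932 to several and 9160 to none, from the platform annotation; 34741 symbols were updated through Entrez identifiers. Each gene took its brightest 1-gene probe set. Genes above the 40th percentile of all probe sets in at least 4 arrays were tested (13826; 4367 were removed). A model with 1 mean per group was fitted on all 23 arrays with limma 3.58.1 (lmFit and eBayes) in R 4.3.3, two-sided, with Benjamini-Hochberg adjustment over all genes tested. SE denotes the moderated standard error, and summed marker signals are log2 of summed linear signals. The number of arrays limits the precision, and no counts lie behind these values. The fit was tested on simulated data.

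The 38 genes and the other lists were chosen with earlier results of these data known. For each comparison the text gives every called gene of the 38 by its group values, up to 12, the others by ranges, and up to 4 called genes of each other list. Alternatives changed the filter, normalization, probe set, prior, array weights, replicate block, groups in the fit, minimum fold and arrays included. A filter at the 40th percentile of the gene values, and the other lists without knockout control replicates 2, 6 and 7, were added after seeing the data. The labels do not say that a replicate number marks a shared litter or batch. Correlations between arrays of the same number in different groups ran from -0.695 to 0.628, which cannot decide whether the samples were paired.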

Additional observations from a re-analysis of the deposited data

Results flagged for a closer look

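In 5 of 140 groups of arrays examined over the 35 genes, 1 array stood far from the rest of its group by Dixon's test; chance alone gives about 1 in 20 groups, or 7 here. Kng1 was high in knockout phenobarbital replicate 6, at 13.54 against 13.39 to 13.43 in the other arrays of the group. Serpind1 was high in knockout phenobarbital replicate 4, at 12.66 against 12.46 to 12.52. Mbl2 was low in wild-type phenobarbital replicate 4, at 11.95 against 12.15 to 12.16, and C2 was low in wild-type phenobarbital replicate 3, at 10.21 against 10.31 to 10.32. Proc was low in wild-type control replicate 2, at 12.32 against 12.40 to 12.44. The phenobarbital effect on F10 was called as different between knockout and wild type, by -0.31 on the log2 scale in limma's test of the difference. That call was lost on leaving out any 1 of 13 arrays. The other F10 probe sets gave -0.37 and -0.14. Over all probe sets none of the F10 probe sets was called (limma adjusted p = 0.062 for the brightest, 0.0761 and 0.698 for the others).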

How the results depend on the processing

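The count of called genes among the 35 stayed within 1.5 times of the reported value in 145 combinations of a comparison and an alternative and moved further in 34. In wild type, the 5 calls with phenobarbital became 3 with the mean of a gene's probe sets, 1 with the second-brightest probe set, 10 with array weights and 2 with a replicate block; leaving out 1 array gave 2 to 6, with 2 calls without wild-type control replicate 3 or wild-type phenobarbital replicate 2 or 4 and 3 calls without wild-type control replicate 2 or 5 or wild-type phenobarbital replicate 1 or 3. In the knockout, the 0 calls became 1 with the second-brightest probe set and 2 without the 3 knockout control arrays, and stayed 0 on leaving out any 1 array (0 to 0). Between genotypes without phenobarbital, 13 calls became 8 in a fit of the 2 compared groups, 10 with the replicate block and 10 to 15 without 1 array; with phenobarbital they became 12 with the block and 11 to 13 without 1 array. The single call on the difference between phenobarbital effects became 0 with the second-brightest probe set or the replicate block, 2 with array weights and 0 to 1 without 1 array. A minimum of 1.5-fold left 0 calls in every comparison. Whether the replicate numbers pair the samples is not known, so the block values are a description.

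Masp1 turned its sign without phenobarbital, to 0.40 with the mean of its probe sets and 0.71 with the second-brightest, and with phenobarbital, to 0.17 and 0.49. With the second-brightest probe set in the knockout comparison with phenobarbital, Kng1 was -7.9e-05 and Proz -0.19. Those reversals come with other probe sets of the same gene. Between genotypes without phenobarbital, a fit of the 2 groups ended the calls of Ahsg, C9, Klkb1, Masp1 and Mbl1, the replicate block those of Ahsg, C9, Masp1 and Mbl1, and array weights those of C9, Klkb1, Masp1 and Mbl1. In wild type, the block ended the phenobarbital calls of F5, Kng1 and Vtn, and quantile normalization (adjusted p = 0.0684) or no filter (0.0534) that of F5. With phenobarbital the block ended the call of Serping1 between genotypes. Over all genes, the 532 calls with phenobarbital in wild type became 1503 with array weights, 942 in a fit of the 2 compared groups and 812 without the 3 knockout control arrays, and 347 and 308 without wild-type phenobarbital replicates 1 and 3. The 284 calls in the knockout became 461, 100 and 785 under the same 3 settings, and 157 without knockout phenobarbital replicate 1. Between genotypes with phenobarbital, 2772 calls became 4574 with array weights and 1606 with the replicate block, and 1794 and 1842 without wild-type phenobarbital replicates 3 and 4; without phenobarbital, 3453 became 1967 with the block, 2081 with the 2 groups and 1532 without the 3 arrays. The 121 calls on the difference became 323 with array weights and 274 without the 3 arrays, and 61 to 77 without wild-type phenobarbital replicate 1, 3 or 4. How far the upper end of the scale limits the change read for the 18 brightest genes was not tested.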

Other observations

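Other secreted and regulatory genes of hepatocytes, from lists chosen with earlier results known, included larger changes. Of 23 acute phase genes, 8 were higher and 1 lower in the knockout with phenobarbital, where 11.9% and 8.12% of all genes were. Without it 5 were higher, where 14.8% of all genes were. With phenobarbital the called changes included Saa2 (log2 change 4.09), Saa1 (3.14) and Fgl1 (1.97), secreted acute phase proteins, and the 1 fall was that of Il1r1 (-0.63), an interleukin receptor. Lcn2 (3.75) and Saa3 (2.37) had larger values than Fgl1 and were not called. Without phenobarbital the called genes included Steap4 (1.14), Hamp (0.64), the iron hormone hepcidin, Serpina3n (0.49) and Itih3 (0.39), while Lcn2 (3.32), Saa3 (2.46), Orm2 (2.31), Saa2 (2.26) and Saa1 (1.40) had larger values and were not called. Without the 3 knockout control arrays that stood apart, 2 of the 23 were higher without phenobarbital, Hamp (0.57) and Stat3 (0.38). Saa1 averaged 13.26 ± 0.81 in knockout phenobarbital livers and 13.22 ± 1.03 in knockout control livers (SD, n = 7 each), against 10.13 ± 0.36 in wild-type phenobarbital livers (n = 4) and 11.82 ± 1.38 in wild-type control livers (n = 5). Phenobarbital changed 2 of the 23 in the knockout, Il1r1 (-0.39) and Itih3 (-0.38), and 4 in wild type, Orm3 (2.002), Fgl1 (-1.56), Il6ra (-1.09) and Itih3 (-0.61). On leaving out the 3 arrays, those called in the knockout were Orm3 (1.51), Il6ra (-0.64) and Il1r1 (-0.43).

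Of 14 transcription factors of hepatocytes, Nr1i3, the receptor CAR, fell in the knockout (log2 change -2.24 with phenobarbital and -1.54 without it), as did Foxa1 (-0.89 and -0.78), while Foxa3 rose (0.72 and 0.43). Cebpd rose by 1.16 without phenobarbital. Phenobarbital lowered Prox1 (-0.78) in wild type and called none of the 14 in the knockout. With the 3 arrays left out, Nr1i3 alone of the 14 was called, at -0.95 between genotypes without phenobarbital and -1.35 for phenobarbital in the knockout. Of 19 other secreted proteins, 3 were higher and 1 lower in the knockout with phenobarbital, where 11.9% and 8.12% of all genes were. Ang (-2.23), an RNase, was the largest called change. Without phenobarbital 3 were higher and 3 lower, where 14.8% and 10.1% of all genes were. The largest called were Serpina7 (-2.62), the thyroxine-binding globulin, Ang (-2.14) and Agt (0.77), angiotensinogen. Without the 3 arrays, 2 were higher, Agt (0.91) and Serpina6 (0.47), and 2 lower, Serpina7 (-3.24) and Ang (-2.36). Phenobarbital lowered Ang and Itih2 in both genotypes, with log2 changes of -1.17 and -0.31 in the knockout and -1.08 and -0.40 in wild type. Phenobarbital also lowered Agt (-0.45) and raised Serpina6 (0.48) in the knockout when the 3 arrays were left out.

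Neutrophil markers were higher for 1 of 5 in the knockout with phenobarbital and 2 of 5 without it, S100a8 (2.69) and S100a9 (2.01). Cholangiocyte markers were higher for 1 of 3 and 2 of 3, Epcam among them (1.12 and 0.95). Platelet markers were called for none of 6 with phenobarbital and 1 of 6 without it. Of 5 lymphocyte markers none was called with phenobarbital, and 1 was higher and 1 lower without it. The 1 erythrocyte marker tested was not called. Without the 3 arrays, S100a8 (1.79) and S100a9 (1.38) were still called without phenobarbital, as was 1 of 6 platelet markers, Pf4 (0.65), while Epcam (0.40, limma adjusted p = 0.287) was not.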
